A study of Sus scrofa with 12 samples.

Results

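TNC (tenascin-C) and COMP (cartilage oligomeric matrix protein) are matricellular glycoproteins, secreted proteins of the extracellular matrix that act on how cells adhere to it and signal from it. They are 2 of the 516 genes in the deposited expression table and were taken from it by symbol. Both were singled out because they were higher after pressure overload in these same libraries and because 1 library stood far above the rest. Their difference between the groups is therefore described here without a test.

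Messenger RNA of pig heart was sequenced from polyadenylated RNA. In the pressure overload group, a cuff on the ascending aorta was tightened in steps, and tissue was studied after 5 weeks of left ventricular pressure overload (6 libraries). The referent controls were pigs matched for age and weight (6 libraries). The design text names 9 pigs with pressure overload and 6 controls. The labels do not give the heart chamber sampled, and they do not state that each library is a separate pig, so any p-value measures the spread between libraries, which may be technical. The labels give neither strain nor sex.

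Tenascin-C is scarce in healthy adult heart muscle. Fibroblasts make it where tissue is injured, inflamed or mechanically loaded, and it binds fibronectin and integrins and loosens cell adhesion. COMP belongs to the thrombospondin family. It is best known from cartilage and tendon, where it binds collagens and helps fibrils assemble.

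In NCBI's RefSeq annotation of the Sscrofa11.1 build, TNC spans bases 255533235 to 255630381 of chromosome 1, and COMP spans bases 59061409 to 59068951 of chromosome 2. No other annotated gene overlaps either of them. The nearest gene to COMP, CRTC1, lies 382 bases away, and the nearest to TNC, TNFSF8, lies 74214 bases away. RefSeq annotates 19 transcripts for TNC and 1 for COMP, and the deposited values are per gene, so they do not separate TNC splice forms.

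Effective library sizes, recovered from the spacing of the values, ranged from 19.5 M to 31.9 M reads (M, 1000000). Levels are given as CPM (counts scaled to a library of 1000000 reads), as the authors deposited them. Pressure overload replicate 4 stood apart for both genes, so their full-group means and ratios of means are given with and without it. In whole tissue, a change in the number of cells that make a transcript and a change in transcript per cell cannot be told apart.

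TNC was measured in all 12 libraries. In the controls it was at 7.04, 5.78, 8.39, 6.30, 3.20 and 5.95 CPM in replicates 1 to 6. In pressure overload it was at 8.61, 5.54, 17.5, 64.1, 4.96 and 9.29 CPM in replicates 1 to 6. Of the 6 pressure overload libraries, 4 lay above the highest control and the other 2, replicates 2 and 5, lay inside the control range, so the groups overlapped. Replicate 4 was 3.67 times the next pressure overload library, replicate 3, and 7.65 times the highest control.

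TNC averaged 6.11 ± 1.71 CPM over the controls and 18.3 ± 22.9 CPM over the pressure overload libraries (SD, n = 6 each), a ratio of 3.002. Without replicate 4 the pressure overload mean was 9.18 ± 5.01 CPM (SD, n = 5) and the ratio 1.502. The medians were 6.12 CPM over the controls and 8.95 CPM over the pressure overload libraries, a ratio of 1.46. On the log2(CPM + 1) scale the difference was 0.90 ± 0.55 (SE), and 0.43 without replicate 4. Replicate 4 carried 58.3% of the summed TNC level of the 6 pressure overload libraries.

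COMP was near the limit of detection in all libraries but 1. In the controls it was at 0.381, 0, 0.102, 0, 0.142 and 0.0793 CPM in replicates 1 to 6. In pressure overload it was at 0.231, 0.443, 0.490, 7.44, 0 and 0 CPM in replicates 1 to 6. Replicate 4 was 15.2 times the next pressure overload library, again replicate 3, and 19.5 times the highest control. Apart from replicate 4, pressure overload replicates 2 and 3 lay above the highest control, replicate 1 lay inside the control range, and replicates 5 and 6 had no reads, as did control replicates 2 and 4.

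**Figure D1:**
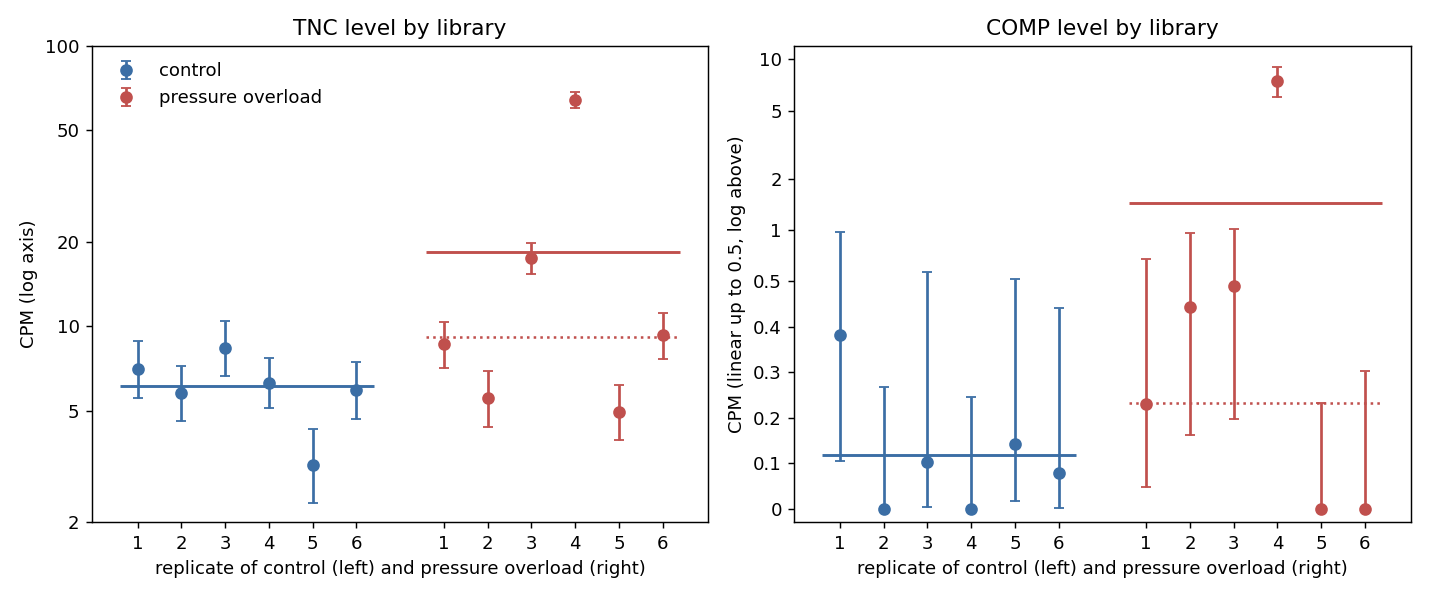
TNC (left, log axis) and COMP (right, linear up to 0.5 CPM and logarithmic above) in each control (blue) and pressure overload (red) library, in CPM. Bars are 95% counting intervals, solid lines group means, and dotted lines the pressure overload mean without replicate 4. Replicate 4, at 64.1 CPM for TNC and 7.44 CPM for COMP, is the highest of the 12 libraries in both panels.

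COMP averaged 0.117 ± 0.141 CPM over the controls and 1.43 ± 2.95 CPM over the pressure overload libraries (SD, n = 6 each), a ratio of 12.2. Without replicate 4 the pressure overload mean was 0.233 ± 0.234 CPM (SD, n = 5) and the ratio 1.98. Medians were 0.0908 CPM over the controls and 0.337 CPM over the pressure overload libraries, a ratio of 3.71. Without replicate 4 the ratio of medians was 2.54. The log2(CPM + 1) difference, which understates the change of so low a gene, was 0.60 ± 0.48 (SE) and 0.13 without replicate 4. Replicate 4 carried 86.5% of the summed COMP level of the 6 pressure overload libraries.

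The reads behind these values differ widely between the genes. TNC rested on 90 to 190 reads per control library and on 150 to 1656 per pressure overload library. COMP rested on 16 reads in all 6 controls together, on 192 reads in pressure overload replicate 4, and on 32 reads in the other 5 pressure overload libraries together. Recovered counts of the 2 genes were even in 24 of 24 cases, and 82.3% of all whole counts in the table were even, so reads were not independent and intervals were computed in units of 2 reads.

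On that basis the exact 95% Poisson interval of TNC in replicate 4 was 59.9 to 68.7 CPM, and its interval in replicate 3 was 15.4 to 19.8 CPM, above the 10.4 CPM that bounded the highest control. COMP in replicate 4 had an interval of 6.02 to 9.08 CPM, while the highest upper bound among the other 11 libraries was 1.01 CPM. In the 4 libraries without COMP reads, a count of 0 (a floor of 3 such units) allows a level of up to 0.188 to 0.247 CPM, depending on the library. The exact 95% interval, a different bound, reaches 0.231 to 0.303 CPM in the same libraries. These intervals and floors cover counting error only.

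**Figure D2:**
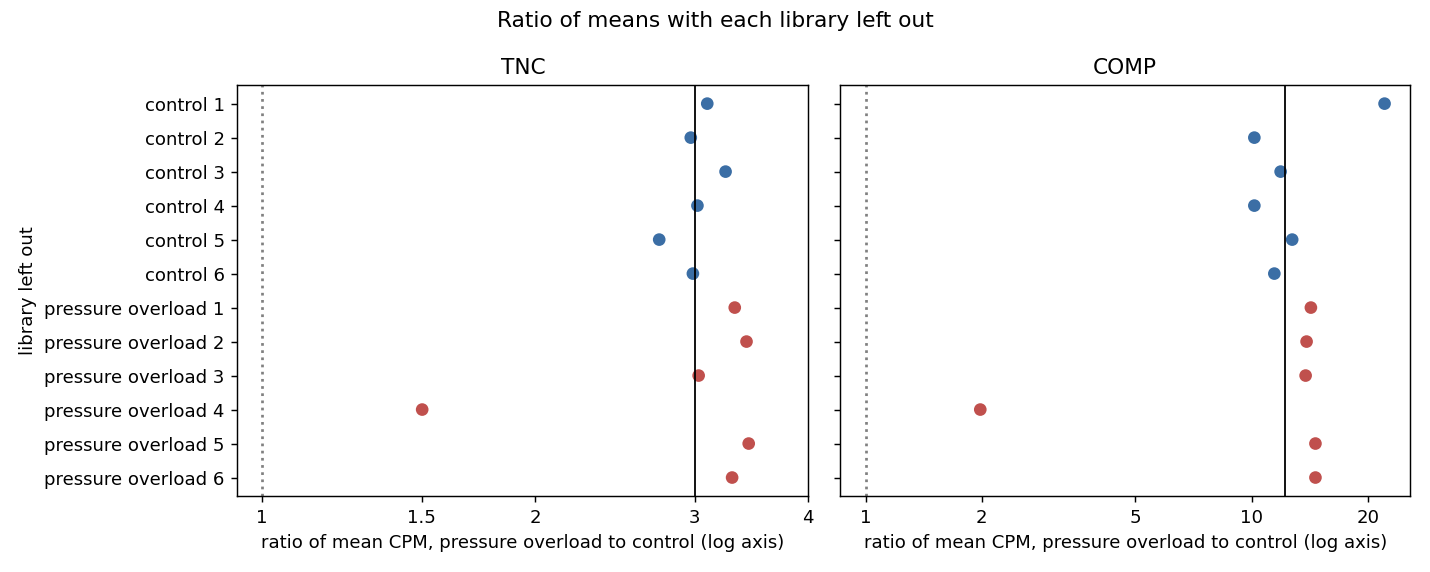
Ratio of mean CPM, pressure overload to control, for TNC (left) and COMP (right) with each library left out in turn (points, log axis, coloured by the group of that library: blue, control; red, pressure overload). The black line is the ratio with all libraries and the dotted line a ratio of 1. Leaving out pressure overload replicate 4 gives 1.502 for TNC and 1.98 for COMP, below every other point.

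With each of the other 11 libraries left out in turn, the ratio of means stayed between 2.74 and 3.44 for TNC and between 10.2 and 22.1 for COMP. The upper value for COMP came from leaving out control replicate 1, which held 8 of the 16 control reads of this gene. Of the 516 listed genes, 6 (1.16%) had a ratio of means that moved over 1.5 times without replicate 4. They were named after their values were seen: COMP moved 6.16-fold, ANKRD2 3.50-fold, RAB3B 2.32-fold, TNC 1.998-fold, PHLDA2 1.82-fold and TRIB3 1.55-fold.

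The libraries carry running numbers, 1 to 6 for replicates 1 to 3 of each group and 10 to 15 for replicates 4 to 6. The labels do not say whether these numbers mark a batch. Within numbers 1 to 6, the controls had 7.07 ± 1.30 CPM of TNC and the pressure overload libraries 10.5 ± 6.21 CPM (SD, n = 3 each), a ratio of 1.49. Within numbers 10 to 15 the same levels were 5.15 ± 1.69 and 26.1 ± 33.0 CPM, a ratio of 5.08. That pressure overload mean held replicate 4 at 64.1 CPM, while replicates 5 and 6 were at 4.96 and 9.29 CPM. The higher ratio of this block for TNC thus rested on replicate 4. For COMP the levels were 0.161 ± 0.197 and 0.388 ± 0.138 CPM within numbers 1 to 6, a ratio of 2.41. Within numbers 10 to 15 its mean in pressure overload, 2.48 ± 4.29 CPM against 0.0739 ± 0.0714 CPM over the controls, came from replicate 4 alone, since replicates 5 and 6 had no reads.

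The authors' deposited table gives TNC a log2 fold change of 1.57 and COMP one of 2.68, the sixth and the first of the 141 higher genes. For TNC the authors' deposited table has an unadjusted p of 0.0037 and an adjusted p of 0.826, and for COMP an unadjusted p of 0.0167 and an adjusted p of 1. These are the values through which the genes came to be listed: every gene in the table had an unadjusted p under 0.05. The 516 listed genes are 3.39% of the 15235 genes that the authors' p-values imply were tested, and the 141 listed as higher are 0.926%. Neither gene was among the 6 (0.0394%) with an adjusted p under 0.05.

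The log2 ratio of the group means was 3.61 for COMP, 0.93 above the value that the authors' deposited table gives it. This was the largest gap of the 516 genes, for which the median was 0.00190. For TNC the log2 ratio of means was 1.59, a gap of 0.02.

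The 2 genes were then set against each other across libraries. Replicate 4 of pressure overload was the highest of the 12 libraries and replicate 3 was the second for both genes. Below these 2 the order differed: pressure overload replicate 6 ranked 3 of 12 for TNC and had no COMP reads, while replicate 2 ranked 3 for COMP and 10 for TNC. The COMP order just after replicate 4 lay within counting error. Pressure overload replicates 3 and 2 had 14 and 12 COMP reads, and control replicate 1 had 8.

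Over the 12 libraries, Pearson's r of log2(CPM + 1) was 0.884 (permutation p = 0.0107, two-sided) and Spearman's rho 0.413 (permutation p = 0.183). With adjustment over the 7 coefficients computed in this family, the permutation p-values were 0.0752 and 0.256, so neither passed 0.05. Without the 2 libraries farthest from the median of TNC, which were replicates 4 and 3 of pressure overload, r was -0.00599 over 10 libraries (permutation p = 0.987). Without replicate 4 alone it was 0.3999 over 11 libraries (permutation p = 0.235), and without replicate 3 alone it was 0.913 (permutation p = 0.0478). The relation over all libraries thus rested on replicate 4. The genes had also been paired with the values of replicate 4 known, so the p-values are not independent support.

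Both genes were chosen for a group difference, which alone can make them correlate. With the mean of each group removed, r was 0.867 over 12 libraries (permutation p = 0.0380 within groups, adjusted permutation p = 0.104) and 0.316 without replicate 4 (permutation p = 0.459). Within pressure overload, r was 0.913 and rho 0.696 (n = 6, exact permutation p = 0.0444 and 0.144, adjusted 0.104 and 0.253). Both coefficients include replicate 4, the highest library for both genes, and none was computed within pressure overload without it. The pair was chosen with that library known, so these values are no separate support. Within the controls, r was 0.0798 and rho 0.203 (n = 6, exact permutation p = 0.869 and 0.700, adjusted 0.869 and 0.817). In controls COMP ranged over only 0 to 8 reads, which limits what a relation to TNC could show there.

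**Figure D3:**
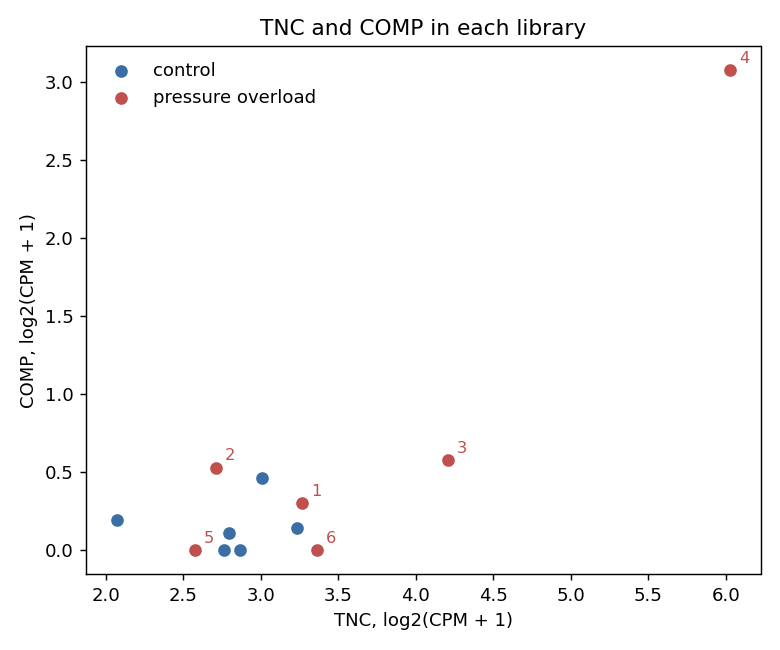
COMP against TNC in each of the 12 libraries, both as log2(CPM + 1), for controls (blue) and pressure overload (red, numbered by replicate). Replicate 4 lies far from the other 11 points, and r is 0.884 with it and 0.3999 without it.

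Replicate 4 was compared with the median of the other 5 pressure overload libraries to see which genes shared its high values. TNC was at 7.45 times that median, the second highest ratio among the 512 genes with at least 1 CPM in at least 6 libraries. COMP, at or above 1 CPM only in replicate 4 and therefore under this filter, was at 32.2 times. The median ratio over the 512 genes was 0.870, and 14 of them (2.73%) were over 2. Of the 516 listed genes, 55 (10.7%) had their highest value of all libraries in replicate 4, so being highest there was not particular to TNC and COMP. The other pressure overload libraries held the highest value of 10 to 30 genes each, and control replicate 5 that of 196. The 516 include 375 genes listed as lower, so the 10.7% is not a measure for genes listed as higher.

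The genes beside them in replicate 4 have varied roles. ANKRD2, a stretch-responsive ankyrin repeat protein of muscle, was at 80.2 CPM in replicate 4 and at 3.16 to 8.22 CPM in the other pressure overload libraries. The controls of ANKRD2 ranged from 2.93 to 11.7 CPM, and its ratio of group means was 3.40 with replicate 4 and 0.973 without it. PHLDA2, a small pleckstrin homology domain protein encoded by an imprinted gene, was at 26.6 CPM against 3.25 to 5.31 CPM in the other pressure overload libraries. VASH2, a vasohibin that removes tyrosine from tubulin, was at 53.7 CPM against 12.1 to 19.6 CPM.

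CKB, a creatine kinase first known from brain, was at 63.4 CPM in replicate 4 and at 16.3 to 29.2 CPM in the other pressure overload libraries, all above its highest control of 15.7 CPM. Groups without overlap were found for 50 (9.69%) of the 516 listed genes, so this is not read as a trait of CKB. ATF3, a stress transcription factor, was at 110 CPM in replicate 4, but it also reached 86.4 CPM in another pressure overload library and 84.5 CPM in a control. The remaining 4 of the 10 highest ratios belonged to genes listed as lower in pressure overload. SCN3B, a sodium channel subunit, was at 9.14 CPM in replicate 4 and MYL4, the atrial myosin light chain, at 17.0 CPM. Their control medians were 9.83 and 26.8 CPM. DZIP3 and GALNT15 likewise lay within their control ranges in replicate 4.

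**Figure D4:**
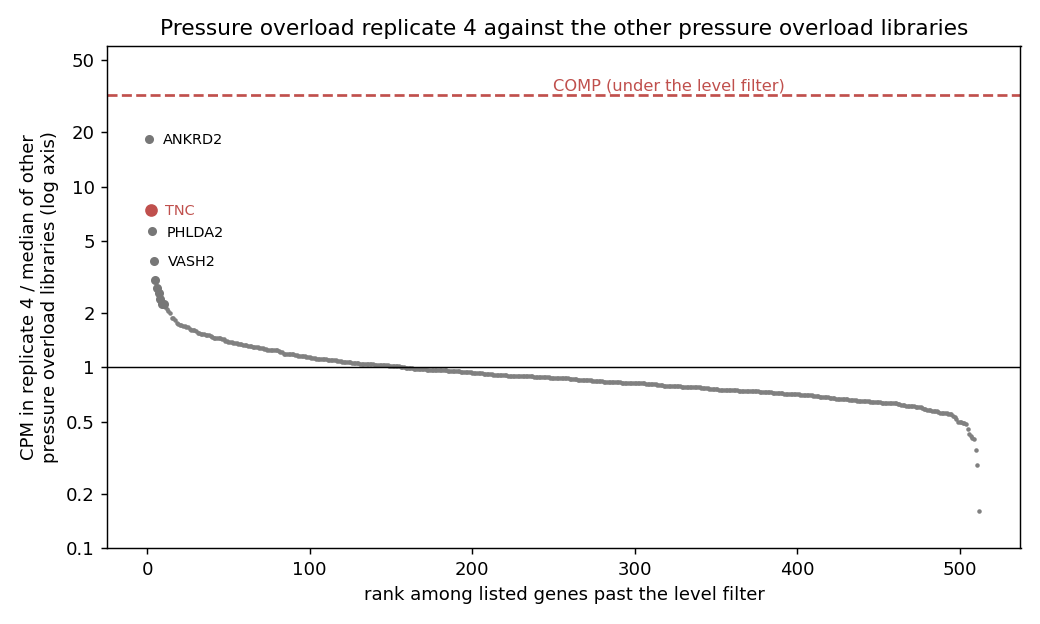
CPM in pressure overload replicate 4 divided by the median of the other 5 pressure overload libraries (log axis), for the 512 genes past the level filter in order of rank. The dashed line marks COMP, which is under the filter. TNC, at 7.45, is second to ANKRD2, at 18.3.

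**Figure D5:**
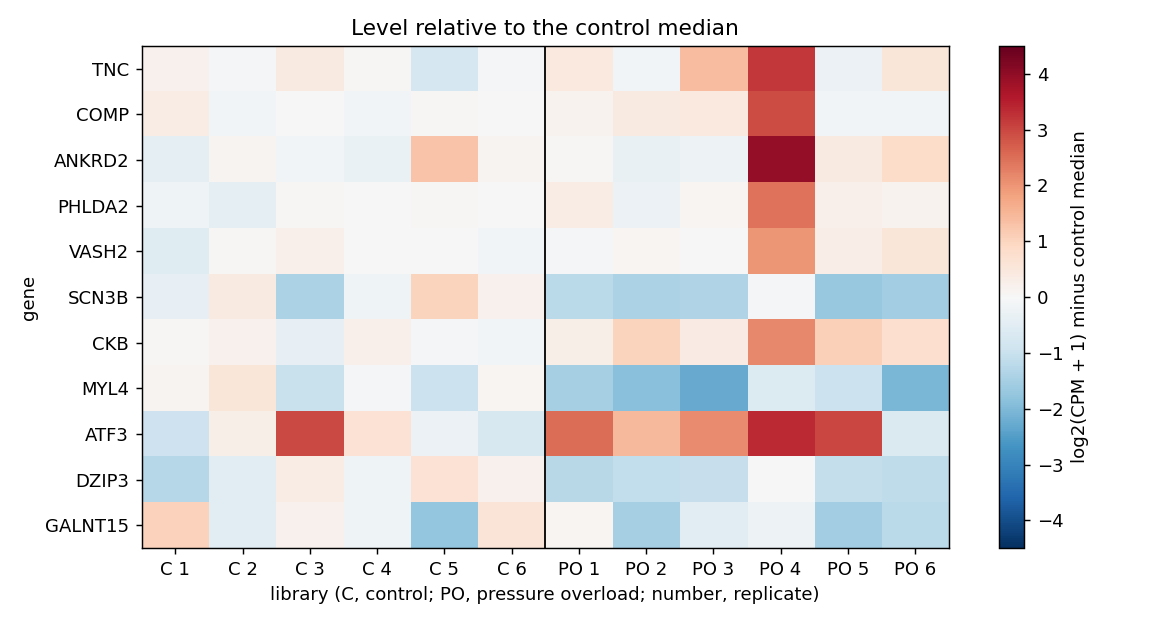
Difference of log2(CPM + 1) from the control median in each library (columns) for TNC, COMP and the other 9 genes with the highest ratios in pressure overload replicate 4 (rows). In replicate 4 TNC was 3.19 and COMP 2.95 above the control median, while SCN3B was 0.08 and MYL4 0.63 below theirs.

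The genes whose pattern was most like that of TNC were ranked by Pearson's r with group means removed, over the same 12 libraries. Only genes past the level filter were ranked, except that COMP, which is under it, was kept for the comparison with TNC. These r values are a description, since all genes share the libraries and were listed from them. COMP ranked first (0.867), followed by PHLDA2 (0.827), VASH2 (0.742) and FAM126A (0.718). The next were XBP1, a transcription factor of the unfolded protein response (0.703), ARPC2, a subunit of the actin-branching complex (0.697), NFIL3 (0.675), the chaperone HSPA4 (0.666) and ANKRD2 (0.660). For COMP the order began with PHLDA2 (0.906), TNC, ANKRD2 (0.820), VASH2 (0.791) and CKB (0.767). Of the 8 most similar genes beside the pair itself, TNC and COMP shared 3, namely ANKRD2, PHLDA2 and VASH2.

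Without replicate 4 the neighbours changed. COMP was at rank 98 of 512 for TNC, and TNC at rank 217 of 512 for COMP. The genes most like TNC were then KIAA2026 (0.885), LAD1 (0.783) and TBXA2R, the thromboxane receptor (0.750), and XBP1 (0.701) and NFIL3 (0.686) were the 2 that were among the 8 most similar genes both times. CREB3L1, a membrane-bound transcription factor that acts on collagen genes, was at 0.679. Of the remaining pressure overload libraries, TNC was highest in replicate 3, at 17.5 CPM against 4.96 to 9.29 CPM in the others. XBP1 and NFIL3 were also highest there, at 136 and 61.9 CPM. The order for TNC may thus rest on replicate 3 and is not read as a result. For COMP 0 of the 8 genes were shared, and its pattern then rested on 0 to 14 reads per library, so its closest genes in that order are not read as a result.

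Other genes of the same matrix biology were counted from lists of relatives, binding partners, cleaving proteases and inducers. Of 143 annotated genes on these lists, 7 (4.90%) were in the table, 5 higher and 2 lower. Without TNC and COMP these were 5 of 141 (3.55%), near the 3.39% of all tested genes that were listed. Taken from the authors' deposited table, log2 fold changes had a median of 0.28 over these 5, of which 3 were higher and 2 lower, and of -0.42 over all 516. Of 4 tenascins TNC alone was listed and of 5 thrombospondins COMP alone. No gene was listed of 24 other matricellular proteins, of 19 receptors and partners of tenascin-C, of 22 of COMP, or of 13 proteases known to cut either protein. Values of genes outside the table were not analysed here, and a gene missing from a list chosen by p may still have differed.

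Of 30 genes of the fibrillar collagens and of collagen folding, processing and crosslinking, 3 (10%) were listed, where 3.39% of all tested genes were. The 3 are processing genes, and no fibrillar collagen was listed. A count of 3, on a list chosen with earlier results of these data known, is too small to be read as a result about such genes. SERPINH1, the collagen chaperone HSP47, averaged 229.7 ± 27.6 CPM over the controls and 280 ± 47.4 CPM over the pressure overload libraries (SD, n = 6 each). P4HA1, a collagen prolyl hydroxylase, was at 53.7 ± 11.97 and 68.9 ± 10.3 CPM. SERPINH1 and P4HA1 had their highest value of the 12 libraries in replicate 4, at 340 and 86.0 CPM, and their second highest pressure overload value in replicate 3, at 335 and 74.997 CPM. Replicate 4 was the highest library for 55 (10.7%) of all listed genes, and both genes had been listed as higher in pressure overload. This order is therefore not read as a trait of these genes. ADAMTS3, which trims the ends of procollagen, was at 10.9 ± 3.84 and 5.58 ± 1.72 CPM. Its value in replicate 3, 2.73 CPM, was the lowest of the 12 libraries, and in replicate 4 it was at 5.73 CPM.

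Among 36 genes of TGF-beta, cytokine and mechanical signalling that may act on TNC, 2 were listed, where 3.39% of all tested genes were. So small a count is not read as a result about these genes. SKI, a repressor of TGF-beta signalling, averaged 39.8 ± 7.40 CPM over the controls and 52.8 ± 12.3 CPM over the pressure overload libraries. Its value in replicate 4, 37.6 CPM, was the lowest of the pressure overload group. MRTFB, an actin-regulated coactivator of serum response factor, was at 45.0 ± 5.91 and 31.4 ± 3.61 CPM, and its groups did not overlap, as for 50 (9.69%) of the listed genes. None of these 5 genes passed an adjusted p of 0.05 in the authors' deposited table, where the lowest, that of MRTFB, was 0.172.

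Of 104 annotated genes on 17 lists of markers of cell types and of cycling cells, 1 (0.962%) was listed, the endothelial receptor KDR, where 3.39% of all tested genes were listed. It averaged 101 ± 27.5 CPM over the controls and 149.7 ± 35.5 CPM over the pressure overload libraries (SD, n = 6 each), and at 117 CPM in replicate 4. No marker of cardiomyocytes, fibroblasts, activated fibroblasts or cartilage, tendon and valve cells was listed. The labelled tissue and the cell makeup of replicate 4 therefore could not be checked against such markers, and the part of cell makeup in the TNC and COMP values was not tested.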

How the data were processed

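The data are 12 RNA-seq libraries of pig heart, 6 per group, grouped by the group label. The kit was directional, per the labels' protocols. The tools in the submitters' processing notes are STAR 2.7.2b, featureCounts (Subread 1.5.3), SAMtools 1.5, Trim Galore 0.4.5 and FastQC, and the build is Sscrofa11.1. How the counting treated strand and multi-mapping reads was not given in the sources used here. What the authors deposited is 1 table of CPM per library and group, with the log2 fold change, mean log2 CPM, likelihood-ratio score, p-value and adjusted p-value of their comparison, per the file headers. Its 516 genes were chosen by p, so no fit across genes was made.

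TNC and COMP, the gene lists and the tests were chosen with earlier results of these data known. CPM was analysed as log2(CPM + 1). Library sizes were searched between 18 M and 36 M reads (M, 1000000). Within 0.02 reads, 95.8% of the values under 5000 reads came out whole, and the rest did not, so no count model was fitted. On a simulated table of 516 genes the sizes of 12 of 12 libraries were recovered. That table held only whole counts and sizes inside the search range, so it did not cover values that are not whole. No libraries were identical. Correlations used exact or 100000-resample permutation tests of pairings, with Benjamini-Hochberg adjustment. Named genes were TNC, COMP, listed members of the gene and marker lists, the 8 genes most like each, with and without pressure overload replicate 4, and the 10 with the highest ratios in that replicate. Alternatives were the pseudocount, a linear scale, library rescaling, medians, the filter and leaving out libraries. Python 3.11.15, SciPy 1.17.1 and NumPy 2.4.6 were used.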

Additional observations from a re-analysis of the deposited data

Results flagged for a closer look

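Of 86 groups of 6 libraries, those of the genes named by the rule and of RAB3B, TRIB3 and GPNMB, 16 held a library whose gap to its nearest neighbour was over 0.625 of the range of its group. For 6 values from a normal distribution, chance gives such a gap in about 1 of 20 groups. The gaps were taken on CPM, which is skewed for several of these genes, so the chance rate here is not known. Pressure overload replicate 4 was that library in 12 cases, and several of these genes had been named for a high value there, so the count describes the choice of genes as much as the library. The values in replicate 4 were 64.1 CPM for TNC, 7.44 CPM for COMP, 80.2 CPM for ANKRD2, 26.6 CPM for PHLDA2, 53.7 CPM for VASH2, 63.4 CPM for CKB and 9.14 CPM for SCN3B. They were 25.4 CPM for DZIP3, a ubiquitin ligase, 31.5 CPM for FAM126A, 178 CPM for HSPA4, 5.89 CPM for RAB3B and 99.3 CPM for CLINT1, an adaptor of clathrin-coated vesicles.

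In the controls, COMP stood out at 0.381 CPM in replicate 1, which was 8 reads, with a gap of 0.626 of the range. ANKRD2 stood out at 11.7 CPM in control replicate 5, ATF3 at 84.5 CPM in control replicate 3 and GPNMB at 18.2 CPM in control replicate 1. The cause was not tested for any of these libraries.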

How the results depend on the processing

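TNC and COMP remained higher in pressure overload under each of the 19 alternatives tried per gene, with log2 differences from 0.39 to 1.41 for TNC and from 0.13 to 1.01 for COMP. With 1 library left out they ranged from 0.43 to 1.13 for TNC and from 0.13 to 0.74 for COMP, and each lowest value came without pressure overload replicate 4. The SE of the difference without that replicate was 0.33 for TNC and 0.14 for COMP. Both genes were chosen for being higher in these libraries, so the kept direction is no separate support. Median-of-ratios rescaling, computed on a table of mostly lower genes, shifted the median of all genes by 0.31 and gave 1.19 for TNC and 0.67 for COMP. The correlation of the 2 genes did not pass 0.05 after adjustment under any alternative except when pressure overload replicate 2 was left out (r = 0.902, adjusted permutation p = 0.0440). With 1 library left out it ranged from 0.3999 to 0.916 over all libraries, with adjusted permutation p from 0.0440 to 0.33, and from 0.316 to 0.903 with group means removed. Within pressure overload it ranged from 0.892 to 0.985 and within controls from 0.0410 to 0.134 over the other scales. The values within pressure overload all kept replicate 4, so that range does not show how far they rest on it. Of the 8 genes most like TNC, 2 were shared without pressure overload replicate 4, and of those most like COMP, 0. No paired analysis was possible because the labels give no replicate numbers that tie controls to pressure overload libraries. Depth limits COMP, which had at most 14 reads outside replicate 4.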

Other observations

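The mean log2 CPM in the authors' deposited table did not match the library columns for either gene. In the authors' deposited table it was 5.45 for TNC and 2.004 for COMP, while the log2 of the mean CPM of the 12 libraries was 3.61 and -0.37. The gaps of 1.84 and 2.37 were the sixth and the third largest of the 516 genes, where the median gap was 0.10 and the quartiles were -0.01 and 0.26. For 13 genes the mean log2 CPM in the authors' deposited table exceeded the log2 level of the highest library, which no mean of these 12 libraries can do. GPNMB, a transmembrane glycoprotein of macrophages and other cells, had the largest gap, with 7.23 against 4.49 in its highest library. TNC and COMP were not among the 13, their highest libraries being at 6.00 and 2.89. The libraries numbered 7 to 9 in the running order were not analysed here.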
